A study of Mus musculus with 6 samples.

Results

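The genes of interleukin-7 signalling were followed in cultured mouse bone marrow cells, from the receptor gene Il7r through the kinase genes Jak1 and Jak3 and the transcription factor genes Stat5a and Stat5b to the feedback inhibitor genes Cish, Socs1, Socs2 and Socs3 and the cytokine gene Osm. All probe sets listed with a single gene symbol among these 10 were taken, which gave 22 of the 45037 probe sets on the array that are not controls. RNA came from bone marrow cells of mice lacking both cryptochrome genes, Cry1 and Cry2 (DKO, 3 arrays), and of wild type mice (WT, 3 arrays), all of strain C57BL/6. Both genotypes were grown in medium with 20% fetal bovine serum and 10 ng/ml interleukin-7, so the arrays hold no culture without the cytokine. The labels name neither the age and sex of the mice, nor the time in culture, nor the way the genes were deleted. They also leave unsaid whether arrays of a genotype came from separate animals, so the spread behind each p-value may be purely technical.

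Interleukin-7 is the cytokine on which early B lymphocytes of the mouse depend for survival and division. Its receptor pairs the chain encoded by Il7r with the common gamma chain; these chains carry the kinases JAK1 and JAK3, which phosphorylate STAT5A and STAT5B, and the STAT5 dimers then switch on target genes. Cish, Socs1, Socs2 and Socs3 are such targets in many cells, and their proteins act back on receptors and kinases to dampen the signal, so their mRNA is often read as a sign of cytokine signalling.

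The values are signal per probe set on a linear scale, and with 3 arrays a genotype the precision is low throughout. WT 2 stood apart from the other 5 arrays. Its ratio of 3' to 5' signal was 824 for the Actb control probe sets and 132 for those of Gapdh, against at most 2.05 and 1.72 on the others. Its median signal was 115, against 44.0 to 55.3. Values were transformed to log2(signal + 16). With WT 2 included they were brought to a common array median, which sets WT 2 lower relative to the others than the deposited values do. Without WT 2 the array medians differed by 0.25 on this scale and were left uncentred. Differences, list counts and array profiles are given with and without WT 2. After centring, WT 2 was the lowest of the 6 arrays in 15 of the 21 tested member probe sets, and in 53.4% of all 27022 tested. As a check of the labels, the Cry1 signal was 359, 399 and 545 in DKO 1 to 3, against 1533, 1502 and 955 in WT 1 to 3 (log2 difference -1.26, limma adjusted p = 0.822, and -1.47 without WT 2, limma adjusted p = 0.745). The Cry2 signal was 162, 178 and 133 in DKO 1 to 3, against 145, 102 and 105 in WT 1 to 3 (log2 difference 0.70, limma adjusted p = 0.822, and 0.31 without WT 2, limma adjusted p = 0.896). Where these probes lie relative to the deletions was not looked up, and a probe outside a deletion checks nothing.

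No member probe set passed the test for a difference between the genotypes. Of the 22 probe sets, 21 passed the filter on low values, and limma called 0 of these 21 with an adjusted p below 0.05, where it called 2 of 27022 (0.0074%). At an unadjusted p below 0.05 there was 1 of 21, a Jak1 probe set, where the share of all tested probe sets was 3.12%. Without WT 2, 0 were called, where the share over all tested probe sets was 0.0185%, and the same Jak1 probe set was again the only 1 at an unadjusted p below 0.05 (4.04% of all). The mean of the centred log2 values was higher in DKO for 20 of the 21, where 64.9% of all tested probe sets were on that side. The median log2 difference was 0.44 for the members and 0.21 for all tested probe sets. Without WT 2 the higher side held 16 of 21, where the share of all was 49.7%, and the medians were 0.25 and 0.00. With quantile normalization of all 6 arrays it held 15 of 21, with medians of 0.31 for the members and -0.02 for all tested probe sets. With the 6 arrays left uncentred it held 14 of 21, with medians of 0.13 and -0.10. Several probe sets share a gene and all share the same 6 arrays, so these counts are not independent observations. The size of the differences is bounded more closely without WT 2, where the median standard error of the members was 0.30, against 0.45 with all 6 arrays.

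**Figure D1:**
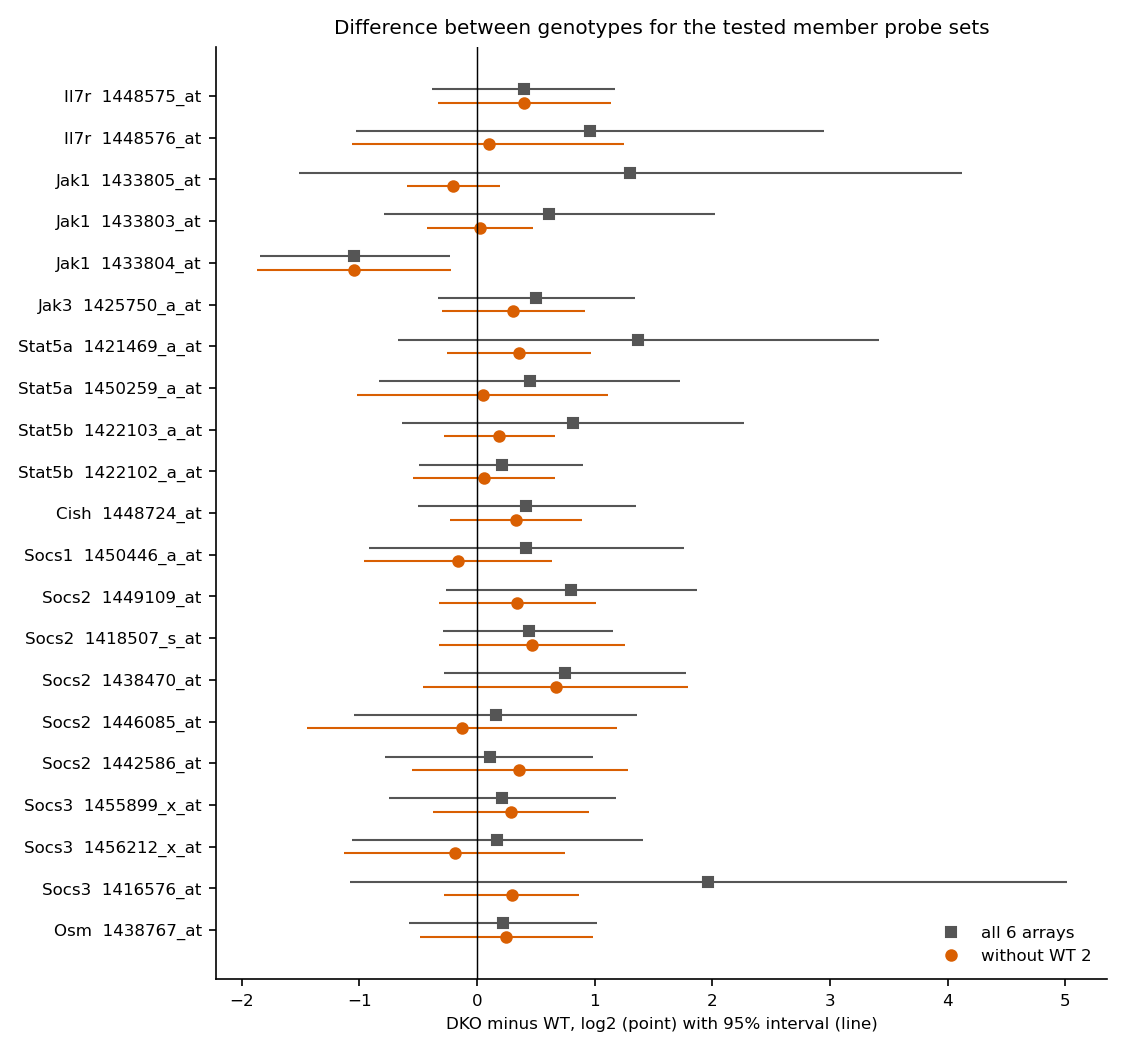
Log2 difference between DKO and WT (x axis) for the 21 tested probe sets (y axis, gene and probe set), with 95% intervals from limma, for all 6 arrays (squares) and without WT 2 (circles). Only the Jak1 probe set 1433804_at has intervals that leave out 0, and the long intervals of 1433805_at and 1416576_at shorten once WT 2 is left out.

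Stretches at or before the listed starts of Cish, Il7r and Socs3 are shown because they hold the general STAT motif TTCNNNGAA. This motif is its own reverse complement, so both strands were searched together. Sequences are from RefSeq on build GRCm38.p6, where windows of 250 bases before to 50 after a listed start were given for 8 of the 10 genes, and Socs2 and Osm had none. The motif was found in 3 of these 8 genes, which together had 10 windows, and in 8.3% of 32851 windows of this length. Cish had 2 matches, and 0.457% of all windows held more than 1, overlapping matches counted. A match is a run of letters and not a measured binding site. The stretches run 5′ to 3′ on the strand of the gene, with the motif in capitals.
Cish, chr9:107296479-107296688, plus strand: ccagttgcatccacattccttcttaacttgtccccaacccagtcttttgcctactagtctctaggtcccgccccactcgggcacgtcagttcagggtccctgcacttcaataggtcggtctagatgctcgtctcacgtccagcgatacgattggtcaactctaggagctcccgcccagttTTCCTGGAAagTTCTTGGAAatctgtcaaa
Il7r, chr15:9529942-9530056, minus strand: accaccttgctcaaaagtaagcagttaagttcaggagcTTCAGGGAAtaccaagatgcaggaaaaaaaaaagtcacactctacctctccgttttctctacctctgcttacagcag
Socs3, chr11:117969502-117969530, minus strand: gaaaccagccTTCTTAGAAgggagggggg
In Cish the matches begin at bases 1 and 12 counted from the listed start, which is base 1. In Il7r and Socs3 they begin 142 and 154 bases before it. In RefSeq the Socs3 gene begins 970 bases before the listed start, so its match lies inside the annotated gene, while the Il7r gene begins 65 bases before the listed start and its match lies upstream. No match was found in the windows of Jak1, Jak3, Stat5a, Stat5b or Socs1, from which nothing follows about STAT5 at those genes.

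Il7r, the gene for the receptor chain that is named for interleukin-7, was read by a bright probe set and a dimmer one. The bright probe set (1448575_at) read 9799, 9719 and 4970 in DKO 1 to 3, against 5922, 11468 and 5861 in WT 1 to 3. As deposited, WT 2 was the highest of the 6 arrays. After centring the log2 values were 13.32, 13.34 and 12.60 in DKO, against 12.62, 12.67 and 12.78 in WT, so that DKO 1 and DKO 2 lay above every WT array and DKO 3 lay below them all. The mean was 13.09 ± 0.43 in DKO and 12.69 ± 0.08 in WT (SD, n = 3 each), a difference of 0.40 (SE 0.33), with a 95% interval of -0.38 to 1.17 and a limma adjusted p of 0.822. Without WT 2 it was 0.40 with an interval of -0.33 to 1.14 (limma adjusted p = 0.896), and with any 1 array left out it ranged from 0.27 without DKO 2 to 0.64 without DKO 3.

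The dimmer Il7r probe set (1448576_at) read 488, 1644 and 791 in DKO 1 to 3, against 741, 242 and 874 in WT 1 to 3. It did not follow the bright one, since DKO 1 was lower than WT 1 and WT 3 here. Its log2 difference was 0.96 (SE 0.85, limma adjusted p = 0.822), and 0.10 (SE 0.48) without WT 2.

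Jak1 encodes the kinase bound to the IL-7 receptor chain and to many other cytokine receptors, and 2 of its 3 probe sets showed no separation of the genotypes. The brightest (1433805_at) read 2168, 2310 and 2704 in DKO 1 to 3, against 2660, 217 and 2819 in WT 1 to 3. WT 2 was far below all other arrays, which otherwise lay close together. The log2 difference was 1.30 (SE 1.20) with all 6 arrays (limma adjusted p = 0.822), and -0.20 (SE 0.16) with an interval of -0.59 to 0.20 without WT 2. It was 2.00 without WT 1 and 2.13 without WT 3.
The second (1433803_at) read 1249, 1303 and 1432 in DKO 1 to 3, against 1174, 735 and 1431 in WT 1 to 3. Its difference was 0.61 (SE 0.60), and 0.03 with an interval of -0.42 to 0.48 without WT 2, which is among the narrowest intervals of the members.

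The remaining, dim Jak1 probe set (1433804_at) had the lowest unadjusted p of the members. It read 65.1, 102 and 104 in DKO 1 to 3, against 263, 390 and 152 in WT 1 to 3. All DKO arrays lay below all WT arrays, as deposited and after centring, where 3.29% of all tested probe sets had DKO below WT without overlap. The log2 values averaged 6.87 ± 0.42 in DKO and 7.90 ± 0.28 in WT (SD, n = 3 each), a difference of -1.04 (SE 0.34), with an interval of -1.84 to -0.23, an unadjusted p of 0.019 and a limma adjusted p of 0.822. Without WT 2 it was -1.04 again (limma adjusted p = 0.896), and over all other settings it ranged from -1.36 to -0.80. Since the brighter Jak1 probe sets did not show this, the 3 probe sets of the gene disagree, and which part of the transcript each reads was not analysed here.

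Jak3, whose kinase is bound to the common gamma chain, had a single probe set with 1 symbol. It read 269, 207 and 275 in DKO 1 to 3, against 211, 257 and 186 in WT 1 to 3. DKO 1 and DKO 3 were the highest arrays after centring, while DKO 2, at 7.89, lay just below WT 1 and WT 3, at 7.91 and 7.92. Between the genotypes the log2 difference was 0.50 (SE 0.36, limma adjusted p = 0.822), and 0.31 with an interval of -0.30 to 0.92 without WT 2.

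**Figure D2:**
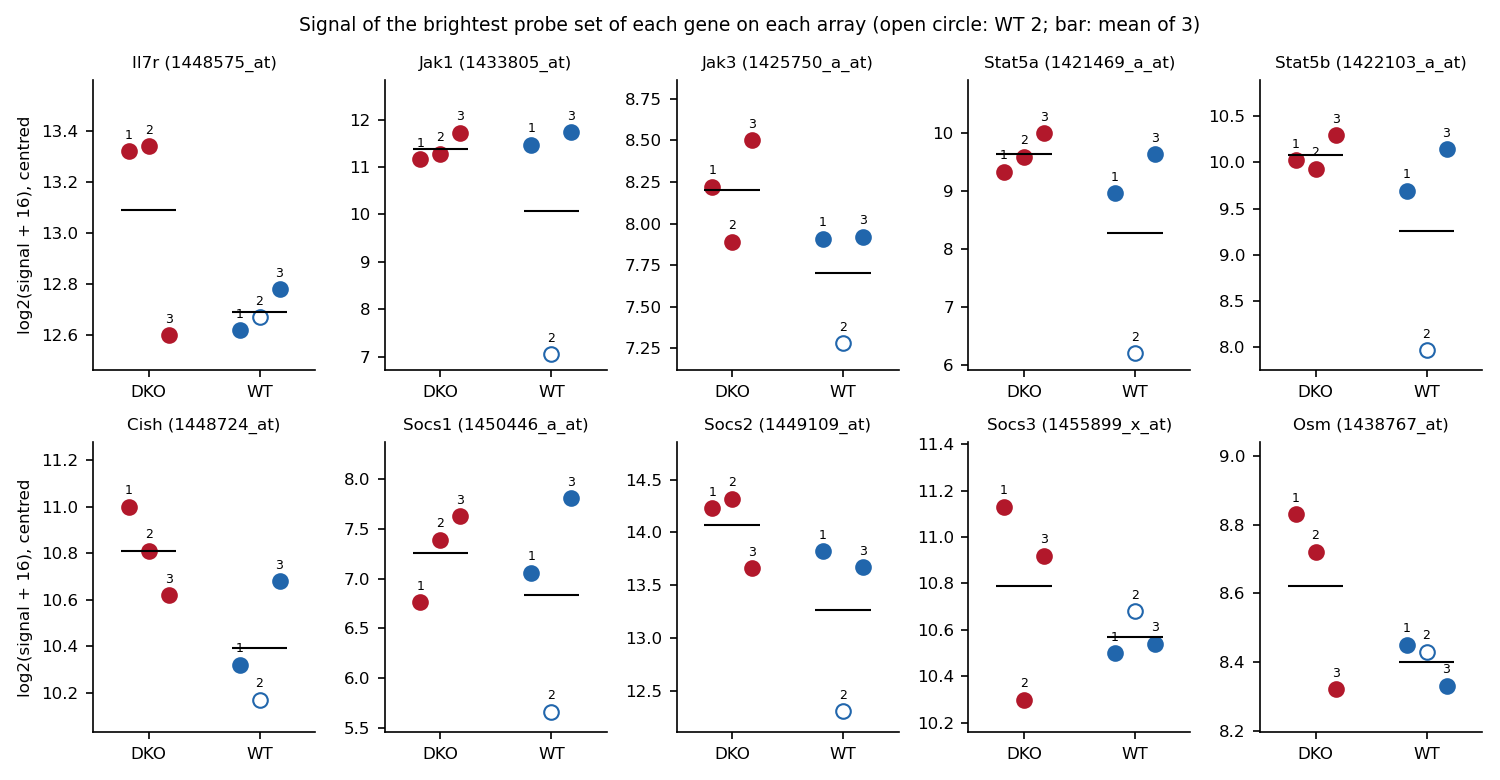
Centred log2(signal + 16) on each array (y axis) for the brightest probe set of each of the 10 genes, with DKO arrays at left and WT arrays at right of each panel, the array number over each point, WT 2 as an open circle and the group mean as a bar. DKO 1 and DKO 2 lie above all WT arrays for Il7r, Cish, Socs2 and Osm, and WT 2 lies far below the rest for Jak1, Stat5a, Stat5b, Socs1 and Socs2.

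Stat5a and Stat5b encode the closely related STAT5 proteins and lie next to each other on chromosome 11. The brighter Stat5a probe set (1421469_a_at) read 600, 708 and 806 in DKO 1 to 3, against 454, 113 and 648 in WT 1 to 3. DKO 2 and WT 3 lay close together after centring, at 9.59 and 9.64, and the groups overlapped. On the log2 scale the difference was 1.37 (SE 0.87, limma adjusted p = 0.822). Without WT 2 it was 0.36 with an interval of -0.25 to 0.97, and without WT 3 it was 2.06. The dimmer one (1450259_a_at), which fell below the array median on 2 arrays, gave 0.45, and 0.05 without WT 2.
The brighter Stat5b probe set (1422103_a_at) read 980, 901 and 991 in DKO 1 to 3, against 761, 425 and 923 in WT 1 to 3. Apart from WT 2 these signals lay within a narrow range. The difference in log2 signal was 0.82 (SE 0.62, limma adjusted p = 0.822), and 0.19 with an interval of -0.28 to 0.66 without WT 2. The dimmer one (1422102_a_at) gave 0.21, and 0.06 without WT 2. The suffix of all these probe sets marks probes shared by several transcripts of a gene.

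Cish, the inhibitor gene with the paired STAT motif shown above, was read by a single probe set (1448724_at). It read 1946, 1668 and 1252 in DKO 1 to 3, against 1189, 2008 and 1348 in WT 1 to 3. As deposited WT 2 was the highest array, and after centring it was the lowest, at 10.17, with WT 1 at 10.32 and WT 3 at 10.68. The DKO arrays stood at 11.00, 10.81 and 10.62, so that only DKO 3 fell within the range of WT. The log2 difference was 0.42 (SE 0.39, limma adjusted p = 0.822), 0.33 with an interval of -0.23 to 0.89 without WT 2, and 0.01 with quantile normalization of all 6 arrays.

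Socs2, the SOCS gene best known as an inhibitor of growth hormone signalling, had 6 probe sets, of which 2 were bright. The brightest (1449109_at) read 18313, 19224 and 10439 in DKO 1 to 3, against 13664, 8903 and 10860 in WT 1 to 3. DKO 1 and DKO 2 were above every WT array, and DKO 3 was below WT 1 and WT 3. Between the genotypes the log2 difference was 0.80 (SE 0.45) with an interval of -0.26 to 1.87 (limma adjusted p = 0.822), and without WT 2 it was 0.34 with an interval of -0.32 to 1.01.
The second (1418507_s_at), whose suffix marks probes that can match more than a single gene, read 15645, 15232 and 7673 in DKO 1 to 3, against 10250, 18109 and 7586 in WT 1 to 3. Its difference was 0.44, and 0.47 with an interval of -0.32 to 1.26 without WT 2. The third (1438470_at) read 587, 559 and 212 in DKO 1 to 3, against 296, 418 and 218 in WT 1 to 3. It gave 0.75, and 0.67 with an interval of -0.46 to 1.79 without WT 2. In all 3 of these probe sets DKO 1 and DKO 2 were, after centring, the highest arrays.
The other tested Socs2 probe sets were dim and less alike. 1446085_at read highest in WT 1, at 377, against 113 to 283 in DKO, and differed by 0.16, or -0.13 without WT 2. 1442586_at differed by 0.11, or 0.36 without WT 2. The last, 1441476_at, lay below the array median on all 6 arrays, from 9.65 to 19.8 in DKO and 15.8 to 27.7 in WT, and was not tested.

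Socs1 and Socs3 encode inhibitors that bind and block JAK kinases. The Socs1 probe set read 87.9, 141 and 144 in DKO 1 to 3, against 110, 72.7 and 172 in WT 1 to 3. WT 3 was the highest and the groups overlapped, as deposited and after centring. On the log2 scale the difference was 0.42 (SE 0.57, limma adjusted p = 0.833), and -0.16 with an interval of -0.96 to 0.64 without WT 2.
The brightest Socs3 probe set (1455899_x_at) read 2133, 1168 and 1548 in DKO 1 to 3, against 1347, 2873 and 1224 in WT 1 to 3. DKO 2 was the lowest array and the log2 difference was 0.21 (SE 0.41, limma adjusted p = 0.875), or 0.29 without WT 2. A second (1456212_x_at) was highest in WT 1, at 1373, and gave 0.17, or -0.19 without WT 2. The suffix of both marks probes that may also match other genes.
The third Socs3 probe set (1416576_at) read 642, 564 and 451 in DKO 1 to 3, against 469, 11.3 and 417 in WT 1 to 3. After centring, all DKO arrays lay above all WT arrays, where 6.97% of all tested probe sets had DKO above WT without overlap. The margin was small, with DKO 3 at 9.18 and WT 3 at 9.02, and as deposited DKO 3 lay below WT 1. The difference in log2 signal was 1.96 (SE 1.30) (limma adjusted p = 0.822), and 0.30 with an interval of -0.28 to 0.87 without WT 2. It was 2.80 without WT 1 and 2.81 without WT 3. The values without WT 2 were not centred, and on them the groups overlapped, with DKO 3 below WT 1 as in the deposited signals.

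**Figure D3:**
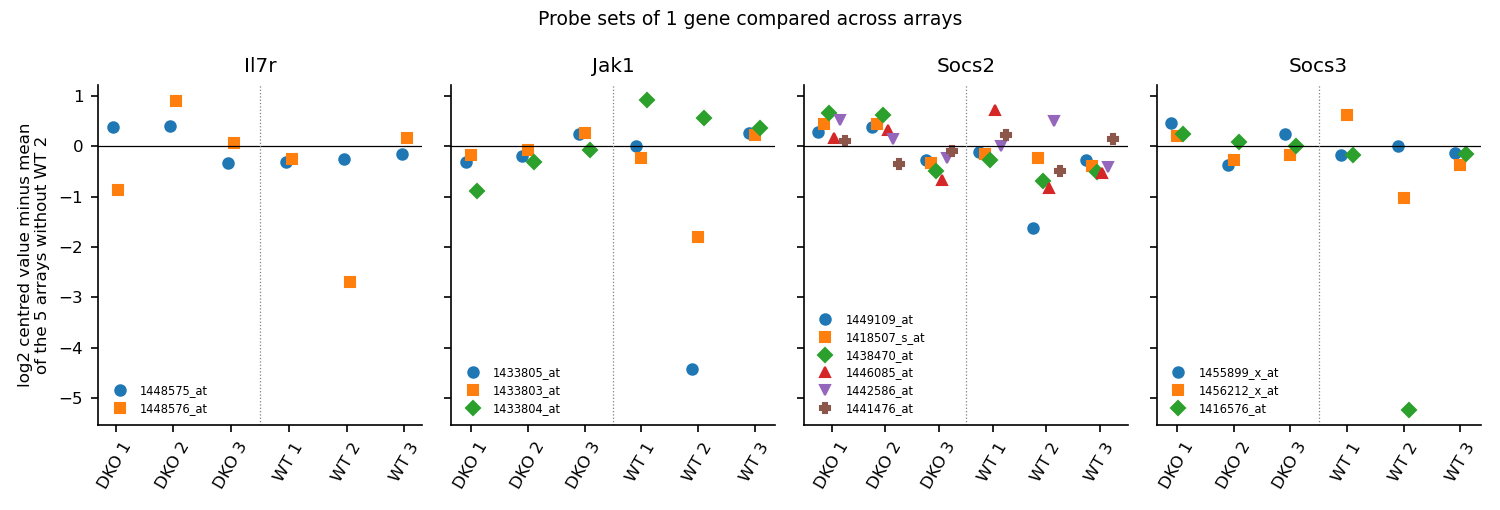
Centred log2 value of each probe set minus its mean over the 5 arrays without WT 2 (y axis) on each array (x axis), for Il7r, Jak1, Socs2 and Socs3. The Jak1 probe set 1433804_at is low on the DKO arrays and high on the WT arrays, and on WT 2 the Socs3 probe set 1416576_at and the Jak1 probe set 1433805_at lie far below the others of their gene.

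Osm encodes oncostatin M, a cytokine of the interleukin-6 family that STAT5 is known to induce in blood cells. Its probe set read 418, 379 and 242 in DKO 1 to 3, against 313, 591 and 252 in WT 1 to 3. After centring DKO 1 and DKO 2 were the highest, at 8.83 and 8.72, and DKO 3, at 8.32, was the lowest of all 6. The log2 difference was 0.22 (SE 0.34, limma adjusted p = 0.845), 0.25 with an interval of -0.48 to 0.99 without WT 2, and -0.24 with quantile normalization of all 6 arrays.

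The order of the arrays within a genotype was also counted, on values that were not centred since WT 2 was left out. With WT 2 left out, DKO 1 and DKO 2 lay above DKO 3, WT 1 and WT 3 in 8 of the 21 tested member probe sets, where 26.2% of all tested probe sets had this order. These were the bright probe set of Il7r, that of Cish, 4 of Socs2, 1416576_at of Socs3 and that of Osm, so that Socs2 alone gave 4 of the 8. By the brightest probe set of each gene it was 4 of 10 members, where 29.6% of all 12606 tested genes had this order. The order is thus common on these arrays, and nothing particular to the members is read from it. Over the brightest probe set of each of the 10 genes, the median log2 deviation from the mean of the 5 arrays was 0.31, 0.14 and 0.10 in DKO 1 to 3, against -0.15 in WT 1 and -0.17 in WT 3.

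Markers of other cells also differed between the arrays of a genotype. All 13 B lineage markers with a probe set, among them Cd79a and Igll1, read above the array median on all 6 arrays. Their summed signal was 165468, 174676 and 140855 in DKO 1 to 3. In WT 1 to 3 it was 132062, 244482 and 147508. Single B lineage genes went opposite ways on DKO 1 and DKO 2, and those named next were picked out after their values were seen. Dntt, which encodes the terminal transferase of early lymphocyte precursors, read 10162, 10083 and 1079 in DKO 1 to 3, against 1314, 3466 and 495 in WT 1 to 3. Ms4a1, a surface protein gene of more mature B cells, read 88.5, 136 and 5741 in DKO 1 to 3, against 934, 1163 and 5263 in WT 1 to 3. Cd22, a B cell surface receptor gene, read 923, 1394 and 5926 in DKO 1 to 3, against 6079, 11739 and 6089 in WT 1 to 3. DKO 1 and DKO 2 were thus the highest arrays for Dntt and the lowest for Ms4a1, and for Cd22 as well. Without WT 2, 5 of the 13 B lineage genes had DKO 1 and DKO 2 above the other 3 arrays and 2 had them below, where 22% of all tested genes had them below. The 14 granulocyte markers summed to 647, 645 and 27986 in DKO 1 to 3, against 76430, 179451 and 19379 in WT 1 to 3. In DKO 1 and DKO 2, 9 and 11 of these 14 lay below the array median. Macrophage and monocyte markers, 17 in all, summed to 30011, 21708 and 38510 in DKO 1 to 3. In WT 1 to 3 these markers summed to 66333, 119797 and 27328. For 14 markers of T cells, NK cells and innate lymphocytes, some of which also express Il7r, the sum was 4546, 3461 and 1459 in DKO 1 to 3, against 1490, 4206 and 1353 in WT 1 to 3. For 9 mast cell and basophil markers it was 1629, 1275 and 271 in DKO 1 to 3, against 544, 1010 and 254 in WT 1 to 3. Sums for 10 erythroid and megakaryocyte markers were 12476, 14378 and 16803 in DKO 1 to 3. In WT 1 to 3 they were 17911, 19041 and 15397. Tfrc alone gave 11817, 13711 and 12238 in DKO 1 to 3, against 15312, 13404 and 12497 in WT 1 to 3. Without WT 2, DKO 1 and DKO 2 lay below the other 3 arrays for Pf4 and Ppbp. They lay above them for Epor and Gata1, among 8 tested genes of this list. The 9 dendritic cell markers gave 4870, 4680 and 2360 in DKO 1 to 3, against 3495, 3765 and 2437 in WT 1 to 3. All these sums are of signals as deposited, and in each list WT 2 had the highest sum of the WT arrays. No marker was listed at 0 on any array. Among the 5 arrays other than WT 2, DKO 1 and DKO 2 thus had the lowest sum of granulocyte markers and the highest sums of mast cell and basophil, of T, NK and innate lymphocyte, of B lineage and of dendritic cell markers. They lay below the other 3 arrays in 13 of 13 tested granulocyte genes and in 9 of 17 macrophage and monocyte genes. They lay above them in 5 of 6 tested mast cell and basophil genes and in 5 of 9 of the T, NK and innate lymphocyte genes. For dendritic cell genes it was 3 of 8, near the 29.6% of all tested genes with this order. Single bright genes made up much of some sums. In DKO 1 and DKO 2, Tcf4 gave 3554 of 4870 and 2962 of 4680 of the dendritic cell sum. Thy1 gave 3389 of 4546 and 1617 of 3461 of the T, NK and innate lymphocyte sum. In DKO 1, Lyz2 gave 12911 of 30011 of the macrophage and monocyte sum. In WT 2, S100a8 and S100a9 gave 94059 and 69958 of 179451 of the granulocyte sum. The part of these markers in the values of the members was not tested, and in mixed cultures fewer cells of a type and less RNA per cell cannot be told apart.

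**Figure D4:**
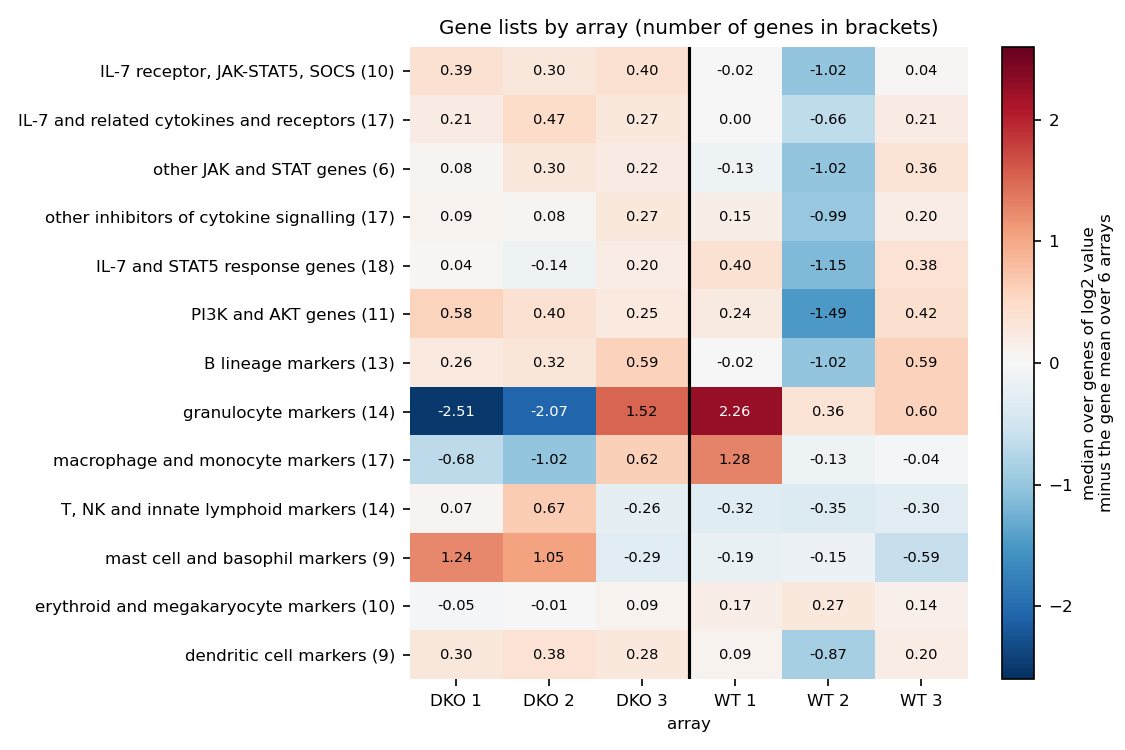
Median over the genes of each list (rows, number of genes in brackets) of the centred log2 value minus the mean of the gene over the 6 arrays, on each array (columns), in colour and as a number. The members stand at 0.39, 0.30 and 0.40 in DKO 1 to 3, against -0.02, -1.02 and 0.04 in WT 1 to 3, and the granulocyte markers are low in DKO 1 and DKO 2 only.

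The genes with array profiles most like those of the members are given as a description over 6 arrays, measured by the root mean square of the log2 differences after each gene was taken against its own mean. Of 12626 other tested genes, the nearest to Il7r were Tspan15 (0.058), Pnrc1 (0.0605) and Zfyve27 (0.0741). Among the members Osm came nearest to Il7r, at 0.16 and rank 63, and Cish next, at 0.199 and rank 168. The nearest to Cish were Mbd1 (0.0441), Stx16 (0.0564) and Plscr3 (0.0593), with Il7r at rank 415. The nearest to Osm were Fam160b1 (0.0464), Dand5 (0.0672) and Kctd6 (0.074), with Il7r at rank 166. Over the 5 arrays without WT 2, and among 12605 other genes, the nearest to Il7r were Maml1 (0.0163), Cyb561d1 (0.0191) and Zbtb18 (0.0328), the nearest to Cish were Stx16 (0.0356), Mbd1 (0.0379) and Usp30 (0.0381), and the nearest to Osm were Cyhr1 (0.0215), Kif3c (0.0266) and Uqcc3 (0.0318). Socs2 was then the member nearest to Il7r, at 0.117 and rank 148, with Osm at rank 408 and Cish at rank 686. Of the genes named over 6 arrays, Mbd1 and Stx16 stayed among the 3 nearest, and the other named genes were not among them.

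Further genes of the pathway were taken from 5 lists, each gene by its brightest probe set. None of their tested members was called by limma with all 6 arrays or without WT 2, where 1 of 12627 genes was called with all 6 (0.00792%) and 1 of 12606 without WT 2 (0.00793%). Over all genes, 8862 of 12627 had the higher centred log2 mean in DKO (median difference 0.30 on the log2 scale), and 6820 of 12606 without WT 2 (median 0.03). At an unadjusted p below 0.05, 3.27% of all genes passed with 6 arrays and 3.97% without WT 2. With 6 arrays these held 1 of 12 cytokine and receptor genes (Il3ra), 1 of 18 response genes (Mycn) and 0 in the other 3 lists, and without WT 2 they held 5 response genes and 0 in the other 4 lists.

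Related cytokines and receptors had 9 of 12 tested genes on the higher side, with a median log2 difference of 0.58, or 8 of 13 with a median of 0.13 without WT 2. Il3ra, the interleukin-3 receptor alpha chain gene, read 131, 181 and 111 in DKO 1 to 3, against 84.3, 130 and 77 in WT 1 to 3, a difference of 0.79 (SE 0.29, limma adjusted p = 0.822). Without WT 2 it was 0.68. Il15ra, the interleukin-15 receptor alpha chain gene, read 880, 795 and 205 in DKO 1 to 3, against 234, 37.5 and 227 in WT 1 to 3. DKO 3 was below WT 1 and WT 3, and the difference of 2.19 (limma adjusted p = 0.822) was 1.14 without WT 2.
Other JAK and STAT genes had 6 of 6 on the higher side, with a median of 0.32, and 4 of 6 with a median of 0.04 without WT 2. Stat3 differed by 0.78 and Stat6 by 0.49 (limma adjusted p = 0.822 each), or by 0.28 and 0.02 without WT 2. Other genes listed as inhibitors of cytokine signalling, those of phosphatases and PIAS proteins among them, had 15 of 17 on the higher side with all 6 arrays. Without WT 2 it was 5 of 17, and the medians were 0.37 and -0.06. Whether a gene of this list, such as Ptpn11 or Ptprc, can also promote signalling was not taken into account. Socs5 read 1012, 983 and 306 in DKO 1 to 3, against 507, 369 and 281 in WT 1 to 3, a difference of 1.13 (limma adjusted p = 0.822), or 0.81 without WT 2. Pias3 differed by 0.70, or 0.40 without WT 2.
Genes of the PI3K and AKT branch, the other arm downstream of the receptor, had 10 of 11 on the higher side, or 7 of 11 without WT 2, with medians of 0.72 and 0.10. Rptor and Akt1 each differed by 1.08 (limma adjusted p = 0.822), or by 0.36 and 0.29 without WT 2. This list was not split by whether a gene promotes or opposes the branch, so its side counts and medians give no direction of signalling.

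Of 18 response genes downstream of interleukin-7 and STAT5, 10 lay on the higher side with a median of 0.22, and 6 of 18 with a median of -0.33 without WT 2. The list was not split by whether interleukin-7 raises or lowers a gene, so its side counts and medians give no direction of a response. Mycn, which promotes the growth of B cell precursors, read 2885, 3418 and 667 in DKO 1 to 3, against 710, 730 and 724 in WT 1 to 3, so that DKO 3 was the lowest as deposited. The difference was 1.67 (SE 0.66, limma adjusted p = 0.822), or 1.37 without WT 2. Ccnd2, which encodes cyclin D2, read 6894, 5622 and 11285 in DKO 1 to 3, against 14741, 25799 and 12136 in WT 1 to 3. All DKO signals were below all WT signals as deposited, and the difference was -0.82 (SE 0.37, limma adjusted p = 0.822), and -0.82 without WT 2.

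Without WT 2, 5 of these 18 genes had an unadjusted p below 0.05, all with lower mean signal in DKO and none with a limma adjusted p below 0.896. They were Ccnd2, the survival kinase genes Pim1 and Pim2, and the recombinase genes Rag1 and Rag2, and Pim1, Pim2, Rag1 and Rag2 were picked out after their values were seen. Pim1 read 4767, 4191 and 5276 in DKO 1 to 3, against 6376 and 7017 in WT 1 and WT 3, a difference of -0.50 (SE 0.15). Pim2 read 890, 768 and 813 in DKO 1 to 3, against 2336 and 1066 in WT 1 and WT 3, a difference of -0.93. Rag1 read 1513, 1200 and 2472 in DKO 1 to 3, against 2855 and 4053 in WT 1 and WT 3, a difference of -1.04 (SE 0.33). Rag2 read 226, 233 and 298 in DKO 1 to 3, against 485 and 603 in WT 1 and WT 3, a difference of -1.06 (SE 0.25). In each of these 4 genes all DKO arrays were below both WT arrays, an order that 7 of the 18 response genes and 7.87% of all tested genes had without WT 2. WT 2 read 2764, 613, 844 and 185 for Pim1, Pim2, Rag1 and Rag2, lower than all DKO arrays in each, and with it the differences were 0.24, -0.17, -0.06 and -0.26. For the inhibitor genes Cish, Socs2 and Socs3, the brightest probe sets had differences of 0.33, 0.34 and 0.29 without WT 2. Socs1 had -0.16. Each of these intervals included 0 (-0.23 to 0.89 for Cish, -0.32 to 1.01 for Socs2, -0.37 to 0.95 for Socs3, -0.96 to 0.64 for Socs1). On the same arrays 6 of the 18 response genes lay on the higher side, Mycn (1.37) among them. A contrast between inhibitor and response genes was not tested.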

How the data were processed

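Total RNA of 3 DKO and 3 WT samples was hybridised, after biotin labelling, to 1 oligonucleotide array each. The deposited file lists an intensity per probe set, on a linear scale, which the authors obtained with MAS5 (version not stated) per the submitters' processing notes. Without the highest and lowest 2% of values the mean signal was equal on all arrays, which shows that the authors had scaled them. Detection calls and genome build are not given in the sources used. Symbols came from the platform annotation and were updated by gene identifier, and the 932 probe sets with several symbols were not named.

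The scale of all tests was log2(intensity + 16), on which changes of dim probe sets are understated. Arrays were centred on their medians where these differed by more than 0.5, as they did with all 6 arrays (by 1.13) but not without WT 2 (by 0.25). Probe sets whose mean exceeded percentile 40 entered the test, run with limma 3.58.1 in R 4.3.3. It had group as the single term and variances that follow the mean signal. The test was two-sided, with Benjamini-Hochberg adjustment over all 27022 and a threshold of 0.05. Python 3.11.15, pandas 2.3.3, scipy 1.17.1 and matplotlib 3.10.9 made tables and figures. The fit was tested on simulated data. The members, lists and tests were chosen with earlier results of these data known. The rule for named genes took all member probe sets, the called genes of each pathway list or else the 2 with the smallest p, and the 3 nearest profiles of Il7r, Cish and Osm.

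Alternatives were quantile normalization, no centring, another pseudocount (1 or 64), the filter dropped or set at percentile 60, untrended variances, the replicate number as a block, each array left out, quantile normalization without WT 2 and the median probe set of a gene.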

Additional observations from a re-analysis of the deposited data

How the results depend on the processing

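No member probe set was called in any of the 15 other settings. The lowest adjusted p of a member was 0.562. Of the 21 tested, 13 kept their sign in every setting and 8 turned in at least 1. Without centring, the turned differences were -0.11 for Stat5b (1422102_a_at), -0.15 and -0.21 for Socs2 (1446085_at and 1442586_at), -0.10 and -0.14 for Socs3 (1455899_x_at and 1456212_x_at) and -0.09 for Osm. With quantile normalization they were -0.10 and -0.31 for the same Socs2 probe sets, -0.16 and -0.31 for the same Socs3 probe sets and -0.24 for Osm. With quantile normalization without WT 2 they were -0.20 for Jak1 (1433805_at), -0.15 for Socs1, -0.14 for Socs2 (1446085_at) and -0.19 for Socs3 (1456212_x_at). With 1 array left out, Jak1 (1433805_at) ranged from -0.20 to 2.13, Socs1 from -0.16 to 0.90, Socs2 from -0.13 to 0.63 (1446085_at) and from -0.11 to 0.36 (1442586_at), and Socs3 (1456212_x_at) from -0.19 to 0.61. The cause was not tested.

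Leaving out WT 2 moved 5 of the 21 member differences by over 1.5 times in fold, where 24.3% of all tested probe sets moved as much. These were Il7r (1448576_at), Jak1 (1433805_at), Stat5a (1421469_a_at), Stat5b (1422103_a_at) and Socs3 (1416576_at).

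Over all probe sets the 2 calls became 0 with quantile normalization, no centring, a pseudocount of 1 and the replicate block, 1 with the filter at percentile 60, and 5 with quantile normalization without WT 2. With 1 array left out there were 0 to 5 calls. With the replicate number as a block the members had 0 calls. Deviations of arrays of the same number correlated across probe sets at -0.151, -0.00189 and 0.334 for numbers 1, 2 and 3. Number 3 gave the highest of the 9 correlations and numbers 1 and 2 none above 0. DKO 3 and WT 3 also had the lowest array medians, 44.0 and 46.1. The correlations cover WT 2, which stood apart, so they do not decide whether the numbers pair the samples. The main test did not use the numbers. Likeness of array profiles without WT 2 was added after seeing the data, and moved Osm to rank 408 and Cish to rank 686 by likeness to Il7r, which were 63 and 168 with all 6 arrays. Array medians limit what dim probe sets can show, since detection calls were not used here.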
